A study of Homo sapiens with 12 samples.

Results

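The 6 DNA mismatch repair genes MSH3, MSH6, MLH3, PMS1, PMS2 and EXO1 were followed in RNA sequencing of 2 prostate cancer cell lines. They were taken by gene symbol from the 60314 entries with a symbol in each line's table of normalised counts, and all 6 were found. The lines were C4-2B, a castration-resistant derivative of LNCaP, and 22RV1, which was established from a castration-relapsed xenograft. Both are labelled wild type. The 4 groups of 3 libraries were C4-2B given the 56-mer, C4-2B control, 22RV1 given the 56-mer and 22RV1 control. Every group was kept in glutamine-free RPMI-1640 with 5% FBS with 2 mM L-glutamine added back, for 48 h. The 56-mer groups received in addition 50 nM of an oligonucleotide that the series title calls a cyanobacterial aptamer, a nucleic acid that folds to bind a target. Aptamer-free medium, and not a scrambled oligonucleotide, was thus the control that the labels describe. The series text calls the libraries biological triplicates. The labels do not say which cultures they came from, so p-values measure the spread between these libraries.

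Mismatch repair removes bases that were misinserted, and small loops that were left, when DNA was copied. MutS-type proteins find the mismatch: MSH6 is the subunit that reads single mismatches and short loops, and MSH3 the subunit that reads larger loops. MutL-type proteins are then recruited: PMS2 carries the endonuclease that nicks the new strand, MLH3 a related endonuclease best known from meiotic crossing-over, and the role of PMS1 in human mismatch repair is less clear. EXO1 is the exonuclease that digests the nicked strand before it is filled in and ligated. Cells that have lost the pathway accumulate insertions and deletions in runs of a single base. Not every mismatch repair gene was analysed here.

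The coding sequences of the 6 genes hold such runs themselves. The longest run of each gene, read from its GENCODE 29 transcript, is printed in capitals with 11 bases on either side, 5′ to 3′, because these are tracts in which a defect of the pathway can strike its own genes.
MSH3: atgttagggacAAAAAAAAgggcaacattt
MSH6: gccggaagataCCCCCCCCttcttagagct
MLH3: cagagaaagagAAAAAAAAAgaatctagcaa
PMS1: tactcaactgcAAAAAAAtgtaaagatga
PMS2: gactggagaagAAAAAAAAgacgtgtccat
EXO1: ccagaagcaggTTTTTTTgcagttcagat
The run of MLH3 was the longest, at 9 bases. The runs of MSH3, MSH6 and PMS2 had 8 bases, and those of PMS1 and EXO1 had 7. EXO1 has 2 runs of that length, of which the first is shown. Only the run of MSH6 consists of C, and that of EXO1 of T. Counts per gene do not show whether any of these tracts was intact in either line.

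Libraries held 8847368 to 13740386 reads, recovered from the deposited values. C4-2B libraries held 20779 to 22686 genes with reads and 22RV1 libraries 28342 to 31010. Among markers of the prostate luminal epithelium, KLK3, which encodes PSA, averaged 602.7 ± 23.6 RPM, the reads of a gene relative to the scaled total of its library, in C4-2B controls and 92.6 ± 9.9 in 22RV1 controls (SD, n = 3 each), and KRT8 averaged 676.4 and 688.2 RPM there. KLK3, KLK2, TMPRSS2, KRT18 and HOXB13 were called higher in C4-2B by the test described with PMS1, and KRT8 was not called. With libraries scaled to partner genes, 2 of these 6 markers were called higher and 2 lower. Of the 10 markers of leukocytes, endothelium and fibroblasts, PTPRC, CD3E, PECAM1, CDH5 and DCN averaged at most 0.222 RPM in every group, and LYZ at most 0.405. CD68 averaged 13.2 and VWF 13.9 RPM in C4-2B controls, against 1.29 and 0.218 in 22RV1 controls. COL1A1 averaged 35.2 and 21.1 RPM there, and COL1A2 had no reads in any C4-2B library and 1.56 RPM in 22RV1 controls. The part of these markers in the results was not tested. Which of these differences between the lines come from the cells and which from the handling of 2 sets of libraries cannot be told apart.

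PMS1 had, of the 6 genes, the largest log2 difference between the lines with TMM scaling. MSH3 lay further from the median of all genes, on the other side. From the median of genes in the members' range of reads, PMS1 lay further than MSH3. PMS1 averaged 21.8 ± 2.31 RPM in C4-2B controls and 50.0 ± 4.27 in 22RV1 controls (SD, n = 3 each). MSH6 and EXO1 were also lower in C4-2B, by smaller amounts, while MSH3 was the only member with a higher mean there. MLH3 and PMS2 had lower means in C4-2B and did not pass the test. In bulk RNA, fewer cells that express a gene and less of its RNA per cell cannot be told apart. The authors normalised each line separately, so levels were set across lines on recovered reads, scaled over the 12 libraries by TMM, a trimmed mean of ratios. A difference was called at an adjusted p under 0.05 from limma, with Benjamini-Hochberg adjustment over 22364 genes. It called 3 of the 6 members, all lower in C4-2B, where 71.7% of all genes tested were called, 28.6% higher and 43.1% lower in C4-2B. Among the 8264 genes with a mean number of reads between those of the lowest and the highest member, 76.3% were called. A difference between these lines was therefore the usual outcome for a gene, and the members' share did not exceed it.

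**Figure D1:**
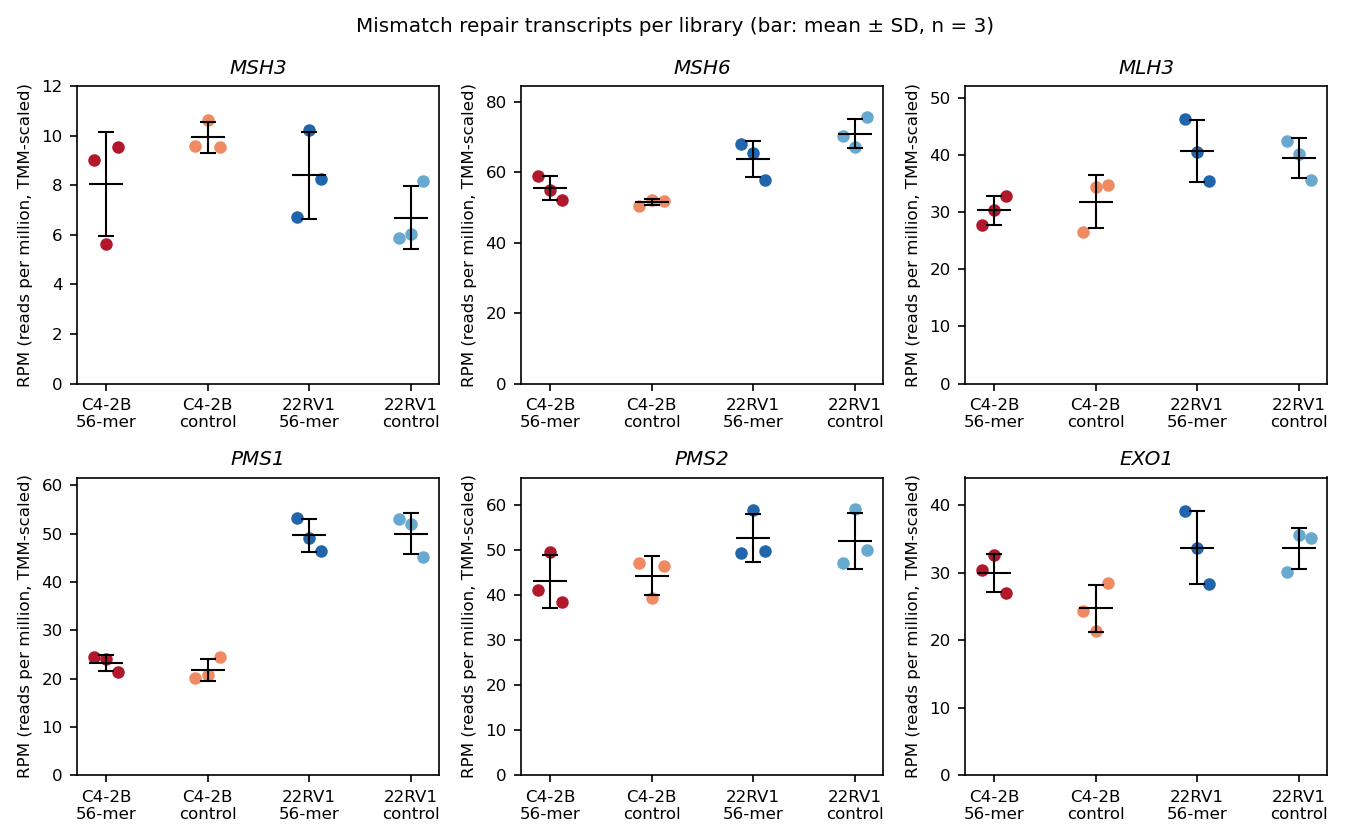
RPM (TMM-scaled, vertical axis, from 0) of each gene in each of the 12 libraries, with the mean and SD of each group of 3. PMS1 lay at 20.2 to 24.5 in all 6 C4-2B libraries and at 45.2 to 53.4 in all 6 22RV1 libraries, while in 22RV1 the 56-mer and control points of every gene overlapped.

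Of the MutS subunits, MSH6 had 50.5, 52.2 and 51.8 RPM in C4-2B controls, against 70.3, 67.2 and 75.6 in 22RV1 controls. The highest C4-2B control lay well below the lowest 22RV1 control, and the C4-2B values lay close together. The log2 difference was −0.46 ± 0.095 (SE; limma, adjusted p = 0.000479). It was −0.20 when the 56-mer libraries of both lines were compared in place of the controls (limma, adjusted p = 0.0701), so the call was lost there. MSH3 had 9.59, 10.7 and 9.56 RPM in C4-2B controls, against 5.89, 6.05 and 8.16 in 22RV1 controls. These groups did not overlap either, with C4-2B on top. The log2 difference of 0.58 ± 0.25 narrowly missed the threshold (limma, adjusted p = 0.0529). It passed without 22RV1 control 3, the highest of its group (0.72, limma, adjusted p = 0.0346). In the 56-mer libraries the MSH3 difference was −0.08 (limma, adjusted p = 0.797), close to 0.

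Of the MutL homologs, PMS1 had 20.2, 20.8 and 24.5 RPM in C4-2B controls, against 53.0, 52.0 and 45.2 in 22RV1 controls. The gap between the groups was nearly as wide as the C4-2B level itself. The log2 difference was −1.20 ± 0.12 (SE; limma, adjusted p = 4.6e-07), with a 95% interval from −1.46 to −0.94. It was −1.09 between the 56-mer libraries and passed the threshold under each of the 18 alternatives run. MLH3 had 26.5, 34.3 and 34.7 RPM in C4-2B controls, against 42.4, 40.2 and 35.6 in 22RV1 controls. C4-2B control 1 stood below the other C4-2B controls, which came close to the lowest 22RV1 control. The log2 difference of −0.32 ± 0.14 missed the threshold (limma, adjusted p = 0.0558). It passed without C4-2B control 2 (−0.37, limma, adjusted p = 0.0469), without C4-2B control 3 (−0.38, adjusted p = 0.0431) or without 22RV1 control 3 (−0.39, adjusted p = 0.0449). Without C4-2B control 1 it shrank to −0.19 (limma, adjusted p = 0.250). PMS2 had 47.2, 39.4 and 46.5 RPM in C4-2B controls, against 47.2, 59.1 and 50.1 in 22RV1 controls. The highest C4-2B control lay just under the lowest 22RV1 control. Its log2 difference of −0.23 ± 0.13 did not pass (limma, adjusted p = 0.124). It was −0.15 without C4-2B control 2 and −0.14 without 22RV1 control 2 (limma, adjusted p = 0.362 and 0.406).

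The exonuclease EXO1 had 24.3, 21.4 and 28.4 RPM in C4-2B controls, against 30.1, 35.6 and 35.1 in 22RV1 controls. The groups were close without overlapping, and the C4-2B controls spread widely. The log2 difference was −0.45 ± 0.15 (SE; limma, adjusted p = 0.0148). The call did not hold without C4-2B control 2, the lowest library (−0.35, limma, adjusted p = 0.0672), without 22RV1 control 2 (−0.40, adjusted p = 0.0542) or without 22RV1 control 3 (−0.41, adjusted p = 0.0504). In the 56-mer libraries the EXO1 difference was −0.16 (limma, adjusted p = 0.341). All 6 members had control groups that did not overlap, 5 with C4-2B lower and 1 with C4-2B higher, as did 74.7% of all genes tested, 44.4% with C4-2B lower and 30.3% with C4-2B higher.

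The size of each difference depended on the scaling, since the tables do not share one. Over all genes tested, the median log2 difference was −0.42 with TMM, −0.72 with library totals, −0.46 with DESeq2 size factors, −0.11 with quantile normalisation and −1.36 when libraries were scaled to the summed reads of 16 partner genes of excision and resynthesis. Relative to that median, PMS1 lay at −0.78 with TMM, at −0.79 with library totals, at −1.02 with quantile normalisation and at −0.81 with the partner genes. MSH3 lay above it, at 0.99 with TMM, 1.21 with quantile normalisation and 0.97 with the partner genes. MSH6 and EXO1, although called, lay at −0.05 and −0.03 relative to the median with TMM and at −0.44 and −0.23 with quantile normalisation. The 8264 genes in the members' range of reads had a median of −0.17 with TMM, above the −0.46 of MSH6 and the −0.45 of EXO1. PMS1 at −1.20 lay further from that median than MSH3 at 0.58. The raw difference of MSH3 was called with quantile normalisation (1.11, limma, adjusted p = 0.000952) and turned to −0.39 with the partner genes. MLH3 and PMS2 were called lower with library totals (−0.63 and −0.54, limma, adjusted p = 0.0015 and 0.0019) and with the partner genes (−1.29 and −1.21), and MLH3 also with DESeq2 size factors (−0.36, adjusted p = 0.0379). The median of the 6 members was −0.38 with TMM, beside −0.42 over all genes, and −0.29 with quantile normalisation, beside −0.11 over all genes. Calls higher in C4-2B made up 39.8% of all calls with TMM and 15.3% with the partner genes.

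**Figure D2:**
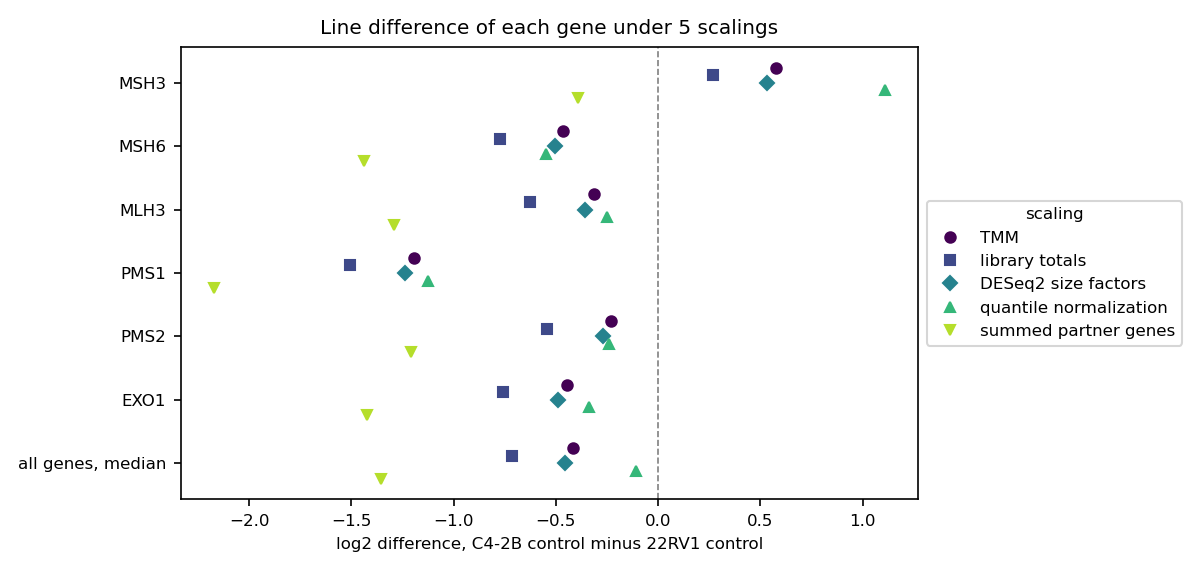
Log2 difference of C4-2B control minus 22RV1 control (horizontal axis) for each gene and for the median of all genes tested, under 5 scalings marked by symbol and colour. PMS1 lay left of the all-gene median under all 5 scalings and MSH3 right of it, and MSH3 crossed 0 with summed partner genes.

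Ratios between 2 genes of the same library need no scaling at all. The 15 ratios among the 6 members were computed after these levels had been seen, and they describe the pattern rather than test it. All 5 ratios that involve PMS1 separated the 6 C4-2B from the 6 22RV1 libraries, and none of the 10 other ratios did so. How many ratios between other genes separate the lines was not counted. Of all single genes tested, 74.7% had control groups that did not overlap between the lines, so separation by itself is not particular to PMS1. PMS1 over MSH6 ran from 0.399 to 0.473 in C4-2B libraries, against 0.597 to 0.803 in 22RV1 libraries. PMS1 over MLH3 ran from 0.607 to 0.883, against 1.15 to 1.31. There were thus fewer reads on PMS1 than on MLH3 in every C4-2B library and more in every 22RV1 library. PMS1 over PMS2 ran from 0.428 to 0.595 in C4-2B libraries, against 0.833 to 1.12 in 22RV1 libraries. PMS1 over EXO1 ran from 0.734 to 0.971, against 1.29 to 1.76. For PMS1 over MSH3 the lines came closest, with 1.95 to 4.24 in C4-2B libraries, against 4.79 to 9.0 in 22RV1 libraries. Within the controls alone, 4 of the ratios without PMS1 did not overlap, all of them with MSH3. A two-sided exact permutation test of 3 controls against 3 gave p = 0.1 for each ratio with PMS1 and for each of those 4 ratios with MSH3. That is the smallest p that this design allows. Every ratio whose control groups do not overlap gives it, so it adds nothing to the separation itself.

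**Figure D3:**
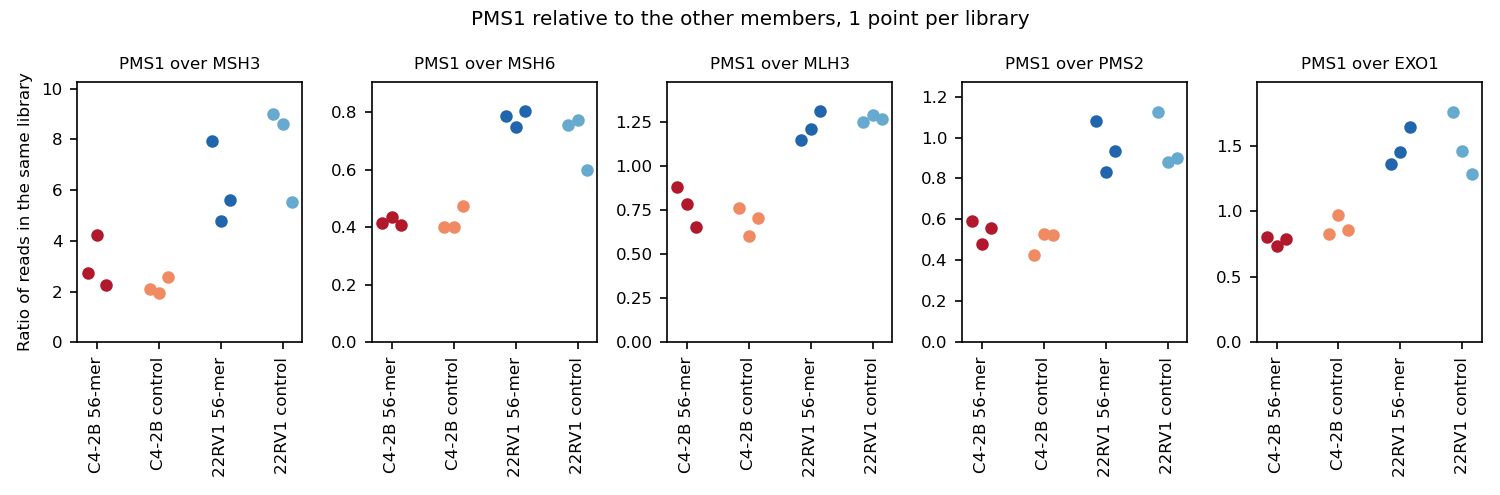
Reads of PMS1 divided by reads of another member in the same library (vertical axis, a ratio, from 0), 1 point per library and 1 panel per gene. The 6 C4-2B libraries lay below the 6 22RV1 libraries in all 5 panels, with 0.399 to 0.473 against 0.597 to 0.803 for PMS1 over MSH6.

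Set against each other per kilobase of annotated exon, the levels ran in a different order in each line. In C4-2B controls PMS2 was highest with 15.5 ± 1.51 RPKM, the RPM per kilobase of exon (SD, n = 3). EXO1 at 7.12 ± 1.01 and MSH6 at 6.59 ± 0.111 followed, with overlapping ranges, and then PMS1 at 4.52 ± 0.478 and MLH3 at 4.02 ± 0.585, again overlapping. MSH3 was lowest at 2.43 ± 0.153, below all MLH3 values. In 22RV1 controls PMS2 was highest again with 18.3 ± 2.17 RPKM. PMS1 at 10.4 ± 0.884 came second there, with a range that overlapped EXO1 at 9.68 ± 0.876, which in turn overlapped MSH6 at 9.09 ± 0.544. MLH3 at 4.98 ± 0.437 and MSH3 at 1.64 ± 0.310 stood apart at the low end. These levels rest on GENCODE 29 exon lengths from 2855 bases for PMS2 to 7909 for MLH3, and which annotation lies behind the deposited counts is not stated in the labels.

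PMS2 is the member whose reads are the least certain, because the genome carries many partial copies of it. The tables list 11 of these, PMS2CL and 10 numbered pseudogenes. The 3′ part of the PMS2 coding sequence aligned with the PMS2CL transcript of GENCODE 29 over 1442 bases, 55.8% of its coding length, at 98.2% identity and with an identical stretch of 300 bases. The 60 bases with the most differences within that alignment are shown. The differing bases are in capitals, since within this stretch only such positions separate the reads of the 2 genes.
PMS2: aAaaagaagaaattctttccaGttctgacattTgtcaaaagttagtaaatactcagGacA
PMS2CL: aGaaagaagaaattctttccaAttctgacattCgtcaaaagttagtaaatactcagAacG
Even here only 5 of 60 bases differed. Of the reads on PMS2 and its copies together, the copies held 61.8% ± 3.73 in C4-2B controls and 58.1% ± 1.83 in 22RV1 controls (SD, n = 3 each). PMS2CL alone averaged 22.1 RPM in C4-2B controls and 16.7 in 22RV1 controls, a log2 difference of 0.40 ± 0.15 (SE; limma, adjusted p = 0.0295) of opposite sign to that of PMS2. It was not called with library totals (0.09, adjusted p = 0.626) or DESeq2 size factors (0.36, adjusted p = 0.0562), and it turned to −0.57 with the partner genes. PMS2P5 was also higher in C4-2B (1.90, limma, adjusted p = 0.0117) and PMS2P3 lower (−1.06, adjusted p = 0.0225), among 7 copies tested. The call of PMS2P5 was lost with the partner genes (1.01, adjusted p = 0.134) and that of PMS2P3 with quantile normalisation (−0.56, adjusted p = 0.169). With PMS2 and its copies summed, an alternative chosen after seeing the data, the log2 difference was −0.09 (limma, adjusted p = 0.406). How the counting assigned reads that match several copies is unknown here, so the level of PMS2 and its difference are uncertain.

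PMS1 and PMS2 each share a start region with a gene that runs the other way. PMS1 starts head to head with ORMDL1, a regulator of sphingolipid synthesis, and PMS2 with AIMP2, a scaffold protein of the tRNA synthetase complex. The 250 bases before the RefSeq start of PMS1 are shown, as the member with the largest log2 difference between the lines with TMM scaling. Capitals mark matches, on either strand, to 3 motifs: TTTGGCGC or TTTCCCGC (E2F type), CCAAT, and GGGCGG, known as the GC box.
PMS1, GRCh38.p14, plus strand, chr2:189784200-189784449: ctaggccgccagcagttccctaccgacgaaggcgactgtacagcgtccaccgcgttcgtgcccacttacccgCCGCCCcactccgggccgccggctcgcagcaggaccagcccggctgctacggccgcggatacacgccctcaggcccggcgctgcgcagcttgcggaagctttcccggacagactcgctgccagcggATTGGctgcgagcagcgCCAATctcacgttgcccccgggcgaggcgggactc
The window held 2 matches to CCAAT and 1 GC box, and no E2F-type match. Motifs were also counted in 35116 RefSeq promoter windows, each from 250 bases before to 50 after a start. The 6 members have 11 of these windows. An E2F-type match stood in 2.27% of all windows, in 1 of 1 of MSH3 and in 1 of 4 of MSH6. CCAAT stood in 34.6% of all windows, in 1 of 4 of MSH6, 1 of 1 of PMS1 and 2 of 2 of PMS2. GGGCGG stood in 44.95% of all windows. Among the members it stood in every window of MSH3, MSH6, PMS1 and PMS2 and in 1 of 2 of EXO1. Member windows not named for a motif had no match. ORMDL1 averaged 39.8 and 44.8 RPM (log2 difference −0.18 ± 0.18, limma, adjusted p = 0.360), so the partner on the other side of the PMS1 start did not pass, though it was called with library totals (−0.49, adjusted p = 0.0118) and with the partner genes (−1.16). AIMP2 was higher in C4-2B with TMM (0.45 ± 0.11, limma, adjusted p = 0.0019), was not called with library totals (0.13, adjusted p = 0.186) and was lower with the partner genes (−0.53). FBXO11, a ubiquitin ligase subunit gene, overlaps the 3′ end of MSH6 on the opposite strand. It differed by −0.42 ± 0.17 (limma, adjusted p = 0.0424), a call that was lost with quantile normalisation (−0.37, adjusted p = 0.0578). Whether the counting used strand is not given, so reads in that overlap cannot be told apart. The nearest genes on the other side of PMS1 and MSH6 differed far more. C2orf88 starts 95112 bases from PMS1 and differed by −5.53, and KCNK12 starts 212160 bases from MSH6 and differed by −7.14 (limma, adjusted p = 4.55e-07 and 2.92e-09). Neither had reads in a C4-2B control. Of the 11 nearest genes tested, 4 were called higher and 5 lower in C4-2B, beside 28.6% and 43.1% of all genes tested.

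The other steps of the pathway were read from 16 genes for the clamp PCNA, its loader RFC, the single-strand binding protein RPA, DNA polymerase delta, the nuclease FEN1, the ligase LIG1 and HMGB1, a DNA-binding protein that can take part in excision. Of the 16, 12 were called higher and 3 lower in C4-2B controls, where 28.6% of all genes tested were called higher and 43.1% lower. The median log2 difference of the 16 was 0.73, beside −0.42 over all genes and −0.17 over the 8264 genes in the members' range of reads. RPA3, the smallest RPA subunit, averaged 68.4 RPM in C4-2B controls and 18.6 in 22RV1 controls (1.87 ± 0.14, limma, adjusted p = 1.6e-08). POLD2, a polymerase delta subunit, differed by 1.79, HMGB1 by 1.71 and RFC4 by 1.30, and PCNA by 0.55. RFC2, RFC3, RFC5, RPA1, RPA2, POLD1 and FEN1 were also higher, by 0.23 to 1.23. The genes called lower were LIG1 (−0.77), RFC1 (−0.50) and POLD3 (−0.43), and POLD4 did not pass. With library totals as the scale, 9 were called higher and 3 lower. With quantile normalisation 11 were called higher and 2 lower. Scaling to their own summed reads, which holds their sum equal in all libraries by construction, left 5 with higher and 11 with lower values. Of 15 replication and proliferation genes, 9 were called higher and 2 lower, with a median of 0.59, against 7 higher and 6 lower with library totals and 1 higher and 10 lower with the partner genes. E2F1 differed by 1.21, MCM5 by 1.20 and MCM7 by 1.08, while the 2 called lower were MCM4 (−0.66) and MKI67 (−0.59). EXO1, which is expressed with such genes in proliferating cells, was lower in C4-2B at the same scale, as were MCM4 and MKI67. With TMM it lay at −0.03 relative to the median of all genes. Of the meiotic MutS homologs, MSH4 had 12 reads in C4-2B control 3 and none in the other C4-2B controls, against 31, 39 and 42 reads in 22RV1 controls, and was called lower (limma, adjusted p = 0.0011). MSH5 averaged 12.9 and 10.9 RPM and did not pass (0.20, limma, adjusted p = 0.660).

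With the 56-mer, no member was called in either line. The background was low too: limma, adjusted over all genes tested, called 0.00975% of 20517 genes in 22RV1 and 0.066% of 16657 genes in C4-2B. The 56-mer and control groups of every member overlapped in both lines, where 9.03% of all genes in 22RV1 and 14.7% in C4-2B did not overlap. That holds for the authors' scale: in TMM-scaled RPM, which the plot of RPM by library shows, the C4-2B groups stood narrowly apart for MSH3, with at most 9.53 in 56-mer libraries and at least 9.56 in controls, and for MSH6, with at least 52.25 in 56-mer libraries and at most 52.15 in controls. The shares of all genes given above are on the authors' scale, and the share that stood apart in TMM-scaled RPM was not counted. Normalised counts are read within a line here, and changes are on the scale of log2 of the normalised count plus 1.

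The MutS subunit MSH3 had the largest estimates, of opposite sign in the 2 lines, and neither passed. With 1 library left out they ran from 0.17 to 0.47 in 22RV1, lowest without 56-mer 2, and from −0.54 to −0.17 in C4-2B, nearest to 0 without 56-mer 2. In 22RV1 it had 91.9, 139.4 and 112.2 normalised counts with the 56-mer, against 80.0, 82.2 and 110.9 in controls, and a log2 change of 0.32 ± 0.23 (SE; limma, adjusted p = 0.9996). In C4-2B it had 87.3, 60.1 and 101.3 with the 56-mer, against 101.7, 116.3 and 99.96 in controls, and a change of −0.38 ± 0.29 (limma, adjusted p = 0.730). One 56-mer library lay inside the control range in each line, and the lowest C4-2B value, 56-mer 2, stood well below the rest. The change in 22RV1 minus that in C4-2B was 0.70 ± 0.38, with a 95% interval from −0.08 to 1.48 (limma, unadjusted p = 0.0744, adjusted p = 0.662). MSH6 had 927.0, 892.3 and 785.7 normalised counts with the 56-mer in 22RV1, against 954.9, 913.6 and 1026.7 in controls (−0.15 ± 0.097, limma, adjusted p = 0.9996). In C4-2B it had 571.6, 585.8 and 555.3 with the 56-mer, against 535.3, 569.2 and 541.3 in controls (0.06 ± 0.13, limma, adjusted p = 0.933). These groups overlapped by a single library on each side, and the 95% intervals, −0.35 to 0.04 in 22RV1 and −0.20 to 0.32 in C4-2B, covered 0.

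The 56-mer and control groups of the MutL homologs overlapped in both lines. PMS1 had 728.0, 668.2 and 631.0 normalised counts with the 56-mer in 22RV1, against 719.9, 706.5 and 613.2 in controls. In C4-2B it had 237.3, 254.7 and 227.0 with the 56-mer, against 214.1, 227.0 and 255.8 in controls. The ranges nearly coincided in 22RV1, and the 56-mer range lay within the control range in C4-2B, with log2 changes of −0.01 ± 0.11 in 22RV1 and 0.05 ± 0.18 in C4-2B (limma, adjusted p = 0.9996 and 0.963). MLH3 had 631.7, 550.7 and 480.8 normalised counts with the 56-mer in 22RV1, against 575.9, 546.1 and 483.9 in controls. In C4-2B it had 268.6, 323.4 and 347.8 with the 56-mer, against 280.5, 374.1 and 362.6 in controls. C4-2B 56-mer 1 and C4-2B control 1 were both low, and the groups overlapped over most of their ranges. Its log2 changes were 0.05 ± 0.12 in 22RV1 and −0.11 ± 0.17 in C4-2B. PMS2 had 674.5, 802.1 and 677.0 normalised counts with the 56-mer in 22RV1, against 640.9, 803.0 and 680.1 in controls. The replicates of PMS2 differed more from each other than the group means did. In C4-2B it had 399.1, 528.5 and 408.2 with the 56-mer, against 500.0, 430.0 and 486.3 in controls. Its log2 changes were 0.02 ± 0.11 in 22RV1 and −0.09 ± 0.15 in C4-2B.

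EXO1 had 535.3, 459.1 and 384.4 normalised counts with the 56-mer in 22RV1, against 409.0, 484.2 and 476.8 in controls, with a log2 change of 0.00031 ± 0.13. The 56-mer libraries of 22RV1 spread beyond the controls on both sides. In C4-2B it had 294.1, 347.3 and 286.4 with the 56-mer, against 258.0, 233.8 and 297.3 in controls, and a change of 0.23 ± 0.17 (limma, adjusted p = 0.721). Only C4-2B control 3 reached into the 56-mer range. The change in 22RV1 minus that in C4-2B was −0.23 ± 0.21 (limma, adjusted p = 0.810). For all 15527 genes tested in both lines, 0.0% were called for a difference in the response by limma, with 1227 genes at an unadjusted p under 0.05, while edgeR called 1 gene and DESeq2 11, none of them a member.

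**Figure D4:**
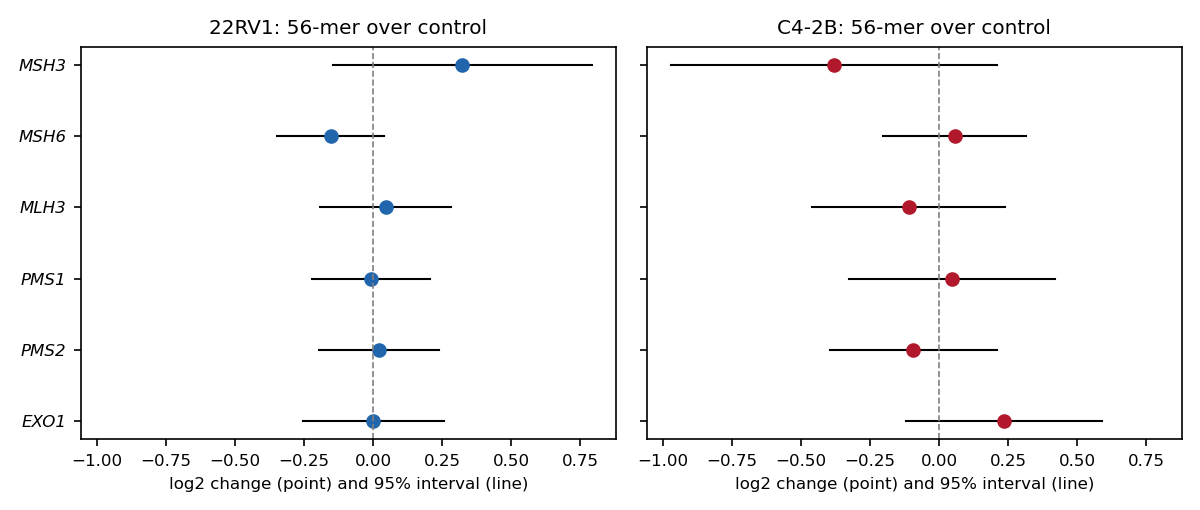
Log2 change of each gene with the 56-mer over control (horizontal axis; point, limma estimate; line, 95% interval), with 22RV1 on the left and C4-2B on the right. All 12 intervals cover 0, and MSH3 has the widest in each line, from −0.15 to 0.79 in 22RV1 and from −0.97 to 0.21 in C4-2B.

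These intervals bound the changes of the 6 genes. A change as large as the difference of PMS1 between the lines lay outside all 12 intervals, and no bound reached 1 on the log2 scale in either direction. In the authors' deposited table of 56-mer against control, the unadjusted p of the 6 genes ran from 0.130 to 0.952 in 22RV1 and from 0.249 to 0.836 in C4-2B. None of the 16 partner genes and none of the 15 replication genes was called with the 56-mer in either line by limma, with median log2 changes of −0.05 and −0.04 in 22RV1 and of −0.01 and 0.05 in C4-2B. The median of the members was 0.01 in 22RV1 and −0.02 in C4-2B, beside −0.003 and −0.01 over all genes. ORMDL1, the head-to-head partner of PMS1, had log2 values of 0.02 ± 0.11 in 22RV1 and −0.53 ± 0.18 in C4-2B (limma, adjusted p = 0.9996 and 0.424).

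After each line's mean was taken out, the genes whose RPM followed a member most closely over the 12 libraries were SNX30 for MSH3 (Pearson r = 0.904), CCT6B for MSH6 (0.857), TTLL7 for MLH3 (0.897), TTC7B for PMS1 (0.908), TMEM263 for PMS2 (0.916) and ZNF33B for EXO1 (0.922). They were picked as the highest of 15527 genes, so values of this size describe the choice, and no member was among the 3 closest genes of another.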

How the data were processed

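Per the labels' protocols, total RNA of C4-2B and 22RV1 cells was column-extracted and sequenced by a commercial provider. The authors deposited 1 table per line of normalised counts, a signal per gene equal to the read count divided by 1 size factor per library, and 1 table per line with log2 fold changes of 56-mer over control, their standard errors, a Wald score and p-values, per the file headers. DESeq, with no version, is the tool in the submitters' processing notes. Which aligner, counter, strand setting, build and annotation were used was not given in the sources at hand. Every nonzero value was a whole multiple of the smallest in its library within a tolerance of 0.01, which gave back the counts behind the deposited values and size factors of 0.732 to 1.18. Each table held 60315 entries, of which 1 had no symbol and was left out. Libraries with fewer reads carry more counting error, which is greatest for MSH3.

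Within a line, genes with at least 10 normalised counts in at least 3 of 6 libraries entered limma (version 3.58.1 in R 4.3.3, with a trended, robust prior) as log2 of the normalised count plus 1, two-sided, Benjamini-Hochberg over all genes tested, at 0.05. The response was compared between lines in 1 fit of 12 libraries. Lines were compared on log2 of TMM-scaled RPM plus 0.1 (edgeR 4.0.16 factors), for genes with at least 10 recovered reads in at least 3 of 12 libraries, with all 12 in the fit. This limma procedure was tested on simulated data. The quasi-likelihood test of edgeR and DESeq2 1.42.0 on recovered reads were alternatives, as were other scalings, filters, pseudocounts and leaving out each library. Levels per kilobase used merged exons of GENCODE 29. Promoters, neighbouring genes and the build GRCh38.p14 came from RefSeq, where all 6 members matched, with 11 windows. The named genes were the 6 members, their partner, replication and meiotic lists, the PMS2 copies, the nearest genes and the closest patterns; not every nearest gene is reported here. Members and lists were chosen with earlier results of these data known.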

Additional observations from a re-analysis of the deposited data

How the results depend on the processing

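No member was called with the 56-mer, in either line or for the difference between lines, under any of the alternatives run. In 22RV1 the sign of 4 members was not stable. EXO1 was at −0.016 with equal totals, and PMS2 at −0.0083 when summed with its copies. Leaving out 1 library at a time gave −0.053 to 0.14 for MLH3, −0.080 to 0.040 for PMS1, −0.061 to 0.12 for PMS2 and −0.12 to 0.12 for EXO1. In C4-2B it gave −0.0095 to 0.12 for PMS1. The difference between lines for PMS1 ran from −0.13 to 0.0018, and that of MLH3 was −0.049 without 56-mer 1 of both lines. This alternative and the sum with the copies were chosen after seeing the data. The line difference of MSH3 was −0.39 with summed partner genes and −0.076 between the 56-mer libraries.

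Counts over all genes moved more. In C4-2B, 11 genes became 34 with no filter, 1 without trend and robust variance, 42 with DESeq2, 0 with edgeR (1399 at an unadjusted p under 0.05), and 0 to 81 with 1 library left out, 81 without 56-mer 1. In 22RV1, 2 became 11 with no filter, 0 without trend and robust variance, and 0 to 13 with 1 library left out, 13 without 56-mer 3. For the difference between lines, 0 became 1 with quantile normalisation, 5 with no filter, 1 without trend and robust variance, 11 with DESeq2, 1 with edgeR, 0 to 11 with 1 library left out, and 1 without 56-mer 1 of both lines. The cause was not tested. Over all alternatives, PMS1 was called for the line difference in 18 of 18, MSH6 in 17, EXO1 in 13, MLH3 in 8, MSH3 in 6 and PMS2 in 2 of 19. No paired analysis was possible because no label pairs a 56-mer library with a control library. With at most 10.7 RPM in any library, MSH3 is limited most by depth.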
